A study of Caenorhabditis elegans with 4 samples.

Results

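The regions described here are the peaks on chromosome II from chromatin immunoprecipitation and sequencing (ChIP-seq) of HPL-2 in Caenorhabditis elegans. They are all rows for chromosome II in the 3 deposited peak lists, chosen by position alone. Chromosome II held 51 of the 329 peaks of the combined list, 4623 of the 30000 peaks of ChIP replicate 1 and 3453 of the 22864 peaks of ChIP replicate 2. In all, 8127 of 53193 rows were members. The samples were young adult hermaphrodites of strain YL472, grown at 20 °C, with 2 ChIP and 2 input libraries. The worms carry the allele unc-119(ed3) and the extrachromosomal array vrEx66, made by bombardment and not outcrossed, with unc-119(+) as its rescuing marker. The array expresses HPL-2 tagged with GFP and 3xFlag from the mex-5 promoter, which is used for germline expression, so the peaks report the tagged protein as made by that array. Anti-GFP goat antibodies were used for the precipitation. No ChIP from untagged worms is among the samples, no input values were analysed, and read depth is unknown. Background common to both ChIP libraries and HPL-2 binding therefore cannot be told apart. The ChIP libraries are numbered 1 and 2 by their titles, while their lists carry the names replicate 2 and replicate 3, and each list was taken for the library it is filed under. Whether they stem from separate cultures is not stated.

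HPL-2 is a homologue of heterochromatin protein 1 (HP1), a family of proteins that bind nucleosomes whose histone H3 is methylated on lysine 9 and that compact chromatin. C. elegans chromosomes have no single centromere, and each autosome has a central region rich in broadly expressed genes between a pair of arms. The arms are richer in repeats and carry most of the lysine 9 methylation, so the share of HPL-2 peaks in arms is a natural first measure of an autosome. In the WBcel235 annotation the genes hpl-2 and unc-119 are on chromosome III and mex-5 is on chromosome IV. None of these native loci of the array's parts, where reads from the array would add to a peak, is therefore on chromosome II. Coordinates below are in WormBase build WS220, per the file headers, and no genome or annotation of that build was used, so the genes at these sites are not named.

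Chromosome II carried peaks in proportion to its length. It makes up 15.2% of the nuclear sequence spanned by peaks and held 15.5% of the combined peaks (95% exact interval 11.8 to 19.9%), 15.4% of the nuclear peaks in the list of replicate 1 and 15.1% in that of replicate 2. Its density was 3.34 combined peaks per Mb, 303 peaks per Mb in replicate 1 and 226 peaks per Mb in replicate 2. On the other autosomes the combined density was between 2.34 peaks per Mb on V and 5.44 peaks per Mb on III. Every peak of chromosome II was 490 bp wide in replicate 1 and 420 bp wide in replicate 2, and 50 of the 51 combined peaks were 636 bp wide. After overlapping peaks were merged, they covered 0.203% of the chromosome in the combined list, 13.7% in replicate 1 and 9.06% in replicate 2. The number at the end of each peak's name was taken as its rank, and the 329 best-ranked nuclear peaks of each ChIP list, as many as the combined list holds, are called its best peaks. Chromosome II held 42 best peaks of replicate 1 and 50 of replicate 2. Rank ranges are counted among nuclear peaks.

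The chromosome was cut into 3 parts of equal length, 5.09 Mb each, and peaks were assigned by midpoint to the left arm (up to position 5090602), the centre (up to 10181205) or the right arm. The right arm held 28 of the 51 combined peaks (54.9%, 95% exact interval 40.3 to 68.9%), the centre 13 (25.5%, 14.3 to 39.6%) and the left arm 10 (19.6%, 9.82 to 33.1%). In peaks per Mb this was 1.96 in the left arm, 2.55 in the centre and 5.50 in the right arm. On the other autosomes the same parts held 3.30, 4.996 and 3.03 combined peaks per Mb. Beside the other autosomes, the high arm share of chromosome II thus went with both a dense right arm and a sparse centre. Its left arm was the sparsest of its 3 parts and also below that of the other autosomes.

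Both ChIP lists had the left arm of chromosome II as the sparsest part as well. The best peaks of replicate 1 fell 5 in the left arm, 14 in the centre and 23 in the right arm, or 0.982, 2.75 and 4.52 peaks per Mb. Those of replicate 2 fell 9, 22 and 19, or 1.77, 4.32 and 3.73 peaks per Mb. In replicate 2 the centre thus held more best peaks than the right arm, although the 95% exact intervals of their shares overlap (29.99 to 58.8% and 24.6 to 52.8%). Over the full lists the density in the left arm, centre and right arm was 282, 301 and 325 peaks per Mb in replicate 1. In replicate 2 it was 197, 240 and 241 peaks per Mb. The other autosomes had 319, 311 and 302 peaks per Mb in replicate 1 and 232, 259 and 230 in replicate 2.

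**Figure D1:**
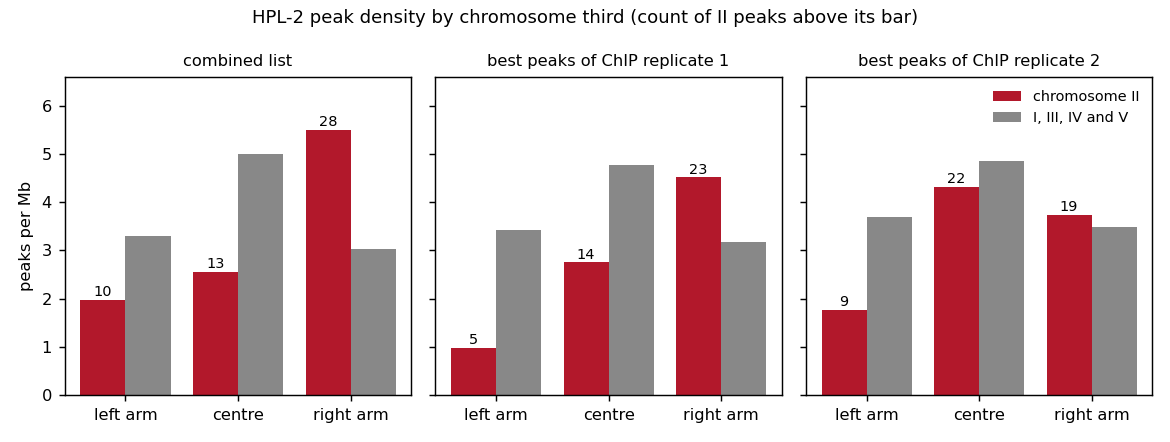
Peaks per Mb in the left arm, centre and right arm of chromosome II (red, count above each bar) and of the other autosomes pooled (grey), for the combined list and for the 329 best nuclear peaks of each ChIP list. The right arm of II stands highest in the combined list (5.50 peaks per Mb) and in replicate 1 (4.52), while in replicate 2 the centre (4.32) is higher, and the left arm of II is lowest in all 3 panels.

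Set against each other, the left arm held 26.3% of the arm peaks of chromosome II in the combined list (95% exact interval 13.4 to 43.1%), a ratio of left to right density of 0.357. Among best peaks the left arm's share was 17.9% in replicate 1 (6.06 to 36.9%, ratio 0.217) and 32.1% in replicate 2 (15.9 to 52.4%, ratio 0.474). In the full lists it was 46.5% (44.7 to 48.3%) in replicate 1 and 45.04% (42.96 to 47.1%) in replicate 2. On the other autosomes the left arm's share of combined arm peaks was between 40.7% on V and 61.8% on IV. The difference between chromosome II and these was not tested. All 3 lists of chromosome II had more peaks in the right arm than in the left, and the interval for the best peaks of replicate 2 includes equal arms.

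The next comparison asked whether the arm share of the combined peaks was also found in each ChIP list. In the combined list 38 of 51 peaks of chromosome II lay in the arms, or 74.5% (95% exact interval 60.4 to 85.7%), beside 142 of 254 (55.9%) on the other 4 autosomes and 59% of all autosomal combined peaks. The difference of 18.6 percentage points did not pass the test (adjusted p = 0.0559, two-sided Fisher's exact test with Benjamini-Hochberg adjustment over the 3 lists). With overlapping peaks merged, the difference was 18.9 points and passed (adjusted p = 0.0477, Fisher's exact test). With peaks within 5 kb joined it was 18.1 points (adjusted p = 0.0918), and among the better-ranked 164 combined peaks 11.5 points (adjusted p = 0.525, Fisher's exact tests), and neither passed. The share on chromosome II was known when the comparison was chosen, so neither value is independent support for it. Peaks are the units of this test, and its p-values do not measure the spread between worm populations.

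At matched length the ChIP lists did not give the same arm share. Among the best peaks of replicate 1, 28 of 42 on chromosome II lay in the arms (66.7%, 95% exact interval 50.5 to 80.4%), against 148 of 255 on the other autosomes (58.04%) and 59.3% of all autosomal best peaks. Among those of replicate 2, 28 of 50 lay in the arms (56%, 41.3 to 70.01%), against 161 of 270 on the other autosomes (59.6%) and 59.1% of all autosomal best peaks. The differences of 8.63 points in replicate 1 (adjusted p = 0.472) and -3.63 points in replicate 2 (adjusted p = 0.642, Fisher's exact tests) did not pass and had opposite signs. Over the full lists, 66.8% of the peaks of chromosome II lay in the arms in replicate 1 and 64.6% in replicate 2, against 66.6% and 64.1% on the other autosomes, and the arms make up 66.7% of the length. The backgrounds over all autosomal peaks were 66.6% and 64.2%.

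The value for replicate 2 depended on where its list was cut. Every best peak has the top score of its list, and the list of replicate 2 has 1840 nuclear peaks at that score, 278 of them on chromosome II, so only the numbers in the names order them. Of these 278 peaks, 63 lay in the left arm, 100 in the centre and 115 in the right arm. Their arm share was 64.03% (95% exact interval 58.1 to 69.7%), against 56.8% on the other autosomes, a difference of 7.21 points that did not pass (adjusted p = 0.113, Fisher's exact test, adjusted over the 12 rank limits tried in the ChIP lists). With the outer 25% at each end as arms, the same peaks gave 39.2% against 38.4%. In replicate 1 the corresponding 74 peaks of chromosome II fell 12, 22 and 40, with an arm share of 70.3% against 60.2% (adjusted p = 0.352, Fisher's exact test). For the 1000 best nuclear peaks, the arm share was 70.8% on chromosome II against 60.4% on the other autosomes in replicate 1 (adjusted p = 0.105), and 62.8% against 57.1% in replicate 2 (adjusted p = 0.42, Fisher's exact tests). For the 5000 best, it was 64.8% against 63.4% in replicate 1 (adjusted p = 0.752) and 64.7% against 59.9% in replicate 2 (adjusted p = 0.105, Fisher's exact tests). None of the 12 passed, and 3 had an unadjusted p under 0.05. These cuts share their best peaks and are not separate pieces of evidence. With arms redefined as the outer 25% at each end, which hold 50% of the length, the combined arm share was 51.0% on chromosome II against 40.6% on the other autosomes (adjusted p = 0.214, Fisher's exact test).

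By rank, the departure from the other autosomes was not steady. In replicate 2 the 12 peaks of chromosome II among the 100 best had 10 in the arms (83.3%, 95% exact interval 51.6 to 97.9%), and the 38 at ranks 101 to 329 had 18 (47.4%, 31.0 to 64.2%). On the other autosomes these shares were 63.2% and 57.9%. At ranks 330 to 1000 the arm share of chromosome II was 72.3% (63.1 to 80.4%) in replicate 1 and 66.3% (56.1 to 75.6%) in replicate 2, against 61.5% and 55.8% on the other autosomes. Of the 112 peaks of replicate 1 at these ranks, 60 lay in the right arm and 21 in the left. Of the 98 of replicate 2, 39 lay in the right arm and 26 in the left. In replicate 1 chromosome II lay below the other autosomes at ranks 1001 to 5000 (63.2% against 64.2%) and 5001 to 10000 (64.8% against 67.7%). In replicate 2 it had 65.2% against 60.7% and 64.3% against 64.2% at these ranks. Beyond rank 10000 the shares were 67.8% and 64.6%, against 67.2% and 65.9% on the other autosomes.

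**Figure D2:**
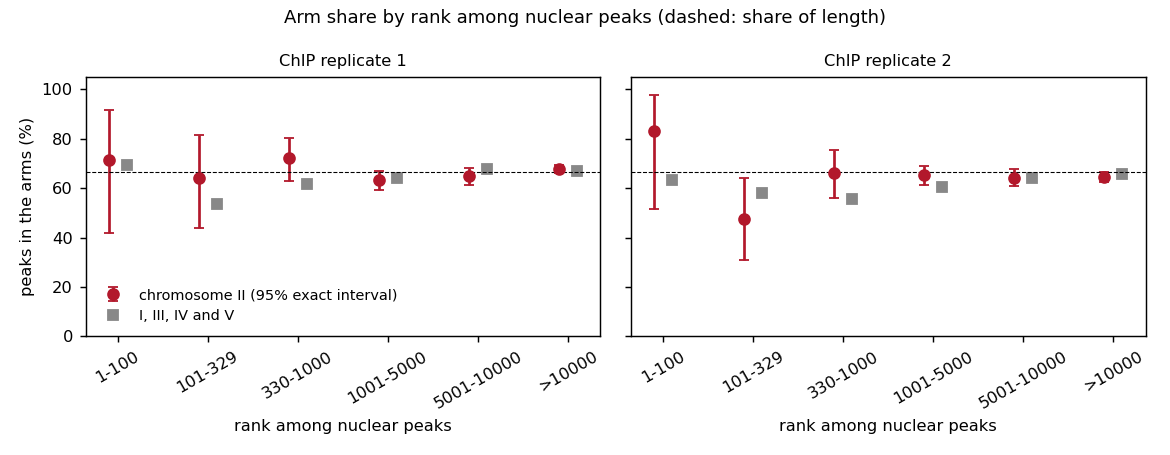
Share of nuclear peaks in the arms (%) by rank in each ChIP list, for chromosome II (red, with 95% exact intervals) and the other autosomes pooled (grey), with the 66.7% of length that the arms hold as a dashed line. In replicate 2 the share on II is 83.3% at ranks 1 to 100 and 47.4% at ranks 101 to 329, and beyond rank 10000 both groups lie near the line in both lists.

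Combined peaks differed in which ChIP list ranked them well. A combined peak was called reached by a replicate if it overlapped a best peak of that replicate by at least 1 bp. Of the 51 combined peaks of chromosome II, best peaks of both replicates reached 13 (25.5%, 95% exact interval 14.3 to 39.6%), and over all combined peaks this share was 25.5% too. Replicate 1 alone reached 18 (35.3%, against 34% of all combined peaks), replicate 2 alone 11 (21.6%, against 24.3%) and neither 9 (17.6%, against 16.1%). In the right arm replicate 1 alone reached 13 of the 28 peaks and replicate 2 alone 5, while both reached 6 and neither 4. In the centre both reached 5 of 13, and either replicate alone reached 3. In the left arm both reached 2 of 10, replicate 1 alone 2 and replicate 2 alone 3. The median rank of the right arm peaks was 171 in replicate 1 and 514 in replicate 2, and that of the centre peaks was 218 and 221. The left arm peaks had medians of 462 and 376. Of the 27 right arm peaks with partners in both lists, 18 ranked better in replicate 1. So did 9 of the 13 centre peaks, 5 of the 10 left arm peaks and 32 of the 50 such peaks on the whole chromosome. Median ranks over the whole chromosome were 221 in replicate 1 and 382.5 in replicate 2. Combined peaks of the other nuclear chromosomes also had a better median in replicate 1, at 248.5 against 315. Their peaks ranking better in replicate 1 were not counted.

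**Figure D3:**
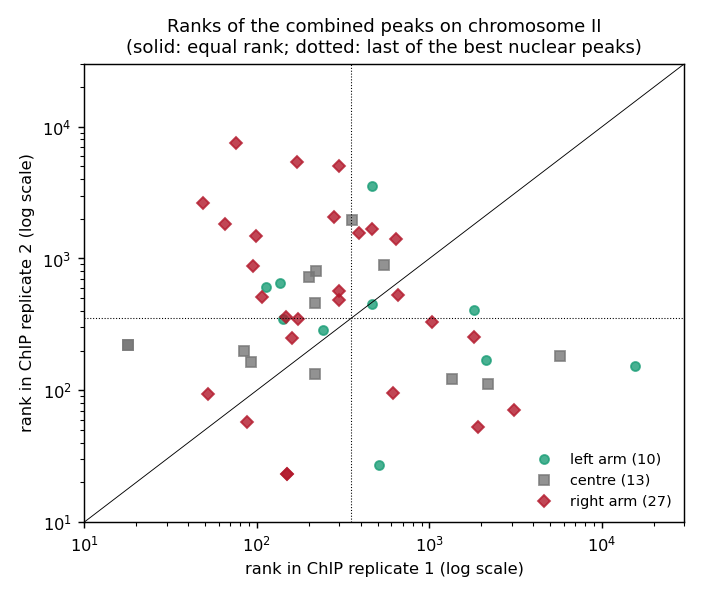
Rank of each combined peak of chromosome II in ChIP replicate 1 (horizontal, log scale) and ChIP replicate 2 (vertical, log scale), by part of the chromosome; dotted lines mark the last of the 329 best nuclear peaks of each list. The plot holds the 50 peaks with partners in both lists, and 32 of them lie above the line of equal rank, on the side of a better rank in replicate 1. These are 18 of the 27 right arm peaks, 9 of the 13 centre peaks and 5 of the 10 left arm peaks. The same count was not made on the other chromosomes.

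The 10 combined peaks of chromosome II with the best numbers were spread over all 3 parts. Ranks below are those of the best overlapping peak in each full ChIP list, counted with mitochondrial peaks. In the left arm, combined peak 7 (4702878 to 4703513) ranked 509 in replicate 1 and 27 in replicate 2. The centre held 5 of the 10. Combined peaks 8 (5844496 to 5845131) and 11 (5844708 to 5845343) overlap each other and share their partners, at ranks 18 and 221. Combined peak 26 (5781762 to 5782397) ranked 84 and 197 in replicates 1 and 2. Combined peak 46 (5543433 to 5544068) ranked 93 and 164. These 4 peaks lie between 5543433 and 5845343, and both replicates reached all of them. Combined peak 48 (8603362 to 8603997) was unlike them, with rank 5725 in replicate 1 and 183 in replicate 2.

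In the right arm, combined peak 18 (10559528 to 10560163) ranked 52 in replicate 1 and 93 in replicate 2. Combined peak 37 (11917456 to 11918091) ranked 88 and 57, and was among the 100 best of both lists, as was peak 18. These were the only 2 sites of chromosome II shared by the 100 best nuclear peaks of the lists. They make up 14.3% of its peaks among the 100 best in replicate 1 and 16.7% in replicate 2. On the other nuclear chromosomes the shares were 19.8% and 19.3%. Combined peak 36 (14155309 to 14155944) ranked 150 and 23. Combined peak 52 (14251116 to 14251751) ranked 148 and 362. Of the 10 peaks, 7 were thus reached by best peaks of both replicates.

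At the other end were combined peaks carried by 1 list. All 51 had a partner in replicate 1 (100% of all combined peaks had), and 50 had 1 in replicate 2 (98.2% of all combined peaks). The exception was combined peak 290 (11376309 to 11376944) in the right arm, which ranked 103 in replicate 1. Combined peak 317 (4590940 to 4591575) in the left arm ranked 15611 in replicate 1 and 154 in replicate 2. Combined peak 173 (15004323 to 15004958), near the right end, ranked 76 in replicate 1 and 7535 in replicate 2. Peaks 317 and 173 hold the poorest partner ranks on the chromosome in replicates 1 and 2, and both were chosen after their values were seen. In all, 28 of the 51 combined peaks (54.9%) were within rank 1000 of both lists, against 53.6% on the other nuclear chromosomes.

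The best-ranked peaks of each list were not all combined peaks. The 3 best of chromosome II in replicate 1 spanned 5844568 to 5845057 in the centre (rank 18), 11960511 to 11961000 in the right arm (rank 49) and 10559589 to 10560078 in the right arm (rank 52). Their best partners in replicate 2 ranked 221, 2628 and 93. The 3 best in replicate 2 spanned 14155330 to 14155749 in the right arm (rank 23), 4702984 to 4703403 in the left arm (rank 27) and 1322580 to 1322999 in the left arm (rank 42). Their best partners in replicate 1 ranked 150, 509 and 23915. The peak at 1322580 had no combined peak, while the other 5 each overlapped one. That left arm site was thus among the 100 best peaks of replicate 2 and beyond rank 10000 in replicate 1.

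Best peaks were carried into the combined list to differing extents. Of the 22 best peaks of replicate 2 in the centre of chromosome II, 19 (86.4%) had a partner somewhere in replicate 1, at a median rank of 5233. In the centre of the other autosomes 83.5% had one, at a median rank of 2159. Of the same 22 peaks, 7 (31.8%, 95% exact interval 13.9 to 54.9%) overlapped a combined peak. In the right arm 11 of 19 (57.9%, 33.5 to 79.7%) and in the left arm 5 of 9 (55.6%, 21.2 to 86.3%) did. On the other autosomes these shares were 42.2% in the centre, 46.2% in the right arm and 56.6% in the left arm. Of the best peaks of replicate 1 on chromosome II, 8 of 14 in the centre (57.1%), 18 of 23 in the right arm (78.3%) and 4 of 5 in the left arm (80%) overlapped a combined peak. The shares on the other autosomes were 54.2%, 57.7% and 51.9% in the same order. The difference between centre and arms in passing to the combined list was not tested. By its name the combined list was taken to pool the same ChIP libraries, so these shares are not independent of it.

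Along the chromosome the combined peaks came in a few dense stretches. The first lay at 255052 to 255687 (combined peak 73, ranks 136 and 652 in replicates 1 and 2) and the last at 15165658 to 15166293 (combined peak 203, ranks 298 and 488). In steps of 1 Mb, the fullest step was from 11 to 12 Mb in the right arm, with 9 combined peaks, 7 best peaks of replicate 1 and 10 of replicate 2. The step from 14 to 15 Mb held 8 combined peaks, with 5 best peaks of replicate 1 and 4 of replicate 2. The step from 5 to 6 Mb, which lies across the border of left arm and centre, held 7 combined peaks and 7 best peaks of each replicate. All 3 of these steps held at least 4 best peaks of each replicate.

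In other stretches the lists differed, or held few best peaks. From 3 to 4 Mb there were 0 combined peaks and 0 best peaks of either replicate, although the full lists held 272 and 168 peaks there. From 6 to 7 Mb there were 0 combined peaks, 1 best peak of replicate 1 and 6 of replicate 2. From 7 to 8 Mb replicate 2 had 7 best peaks, replicate 1 had 3 and the combined list had 1. From 4 to 5 Mb there were 5 combined peaks, 0 best peaks of replicate 1 and 4 of replicate 2. Beyond 15 Mb these counts were 3, 3 and 0. Across the 15 full steps, the counts of best peaks in the replicates had a Pearson r of 0.68 and a Spearman rho of 0.59. For the full lists these were 0.64 and 0.68. The steps are stretches of the same chromosome with the same base composition in both lists, and these correlations are descriptions only.

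**Figure D4:**
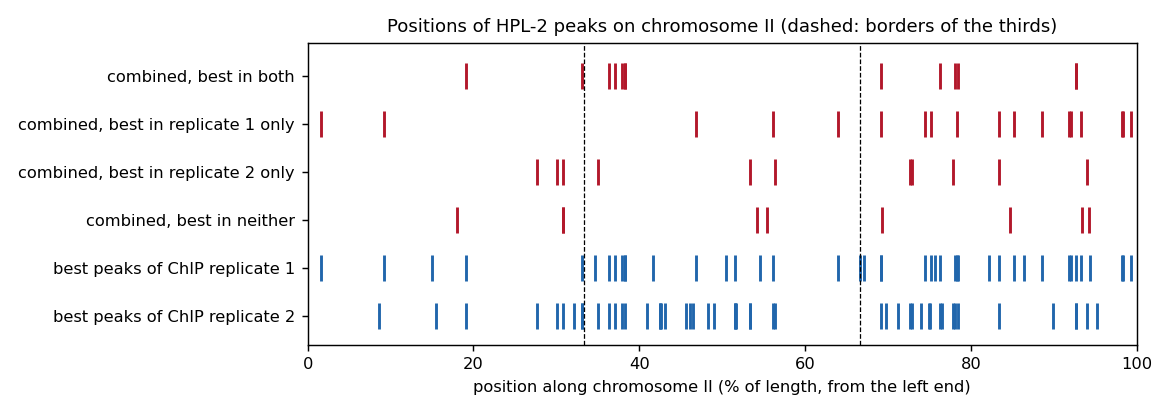
Position of each peak along chromosome II, as a percentage of its length from the left end, for the 51 combined peaks by the best peaks that reached them (red, 4 rows) and for the best peaks of each ChIP list (blue, 42 and 50 peaks), with dashed lines between left arm, centre and right arm. Of the 18 combined peaks reached by replicate 1 alone, 13 lie in the right arm, which holds 28 of all 51 combined peaks. The centre holds 22 best peaks of replicate 2 (44%, against 40.4% on the other autosomes). It holds 13 combined peaks (25.5%, against 44.1% on the other autosomes).

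Spacing followed density. The median distance from a combined peak to its nearest neighbour within the same part was 169 kb in the left arm, 118 kb in the centre and 29.04 kb in the right arm, and 37.6 kb over the whole chromosome. With overlapping peaks merged, the whole-chromosome value was 62.8 kb. The widest gap, 1348 kb, lay in the left arm between combined peaks 132 (1403038 to 1403673) and 249 (2751307 to 2751942). The widest gaps between neighbours within the centre and right arm were 1307 kb and 752 kb. In the full lists the median distance between neighbouring midpoints was 1.97 kb in replicate 1 and 2.58 kb in replicate 2. By part it was 2.07, 1.95 and 1.88 kb in replicate 1 and 2.95, 2.46 and 2.43 kb in replicate 2, from left arm to right arm. The widest distance between neighbouring midpoints in each full list was also in the left arm, at 39.1 kb in replicate 1 and 57.8 kb in replicate 2.

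Of the 51 combined peaks, 11 (21.6%, 95% exact interval 11.3 to 35.3%) had another within 5 kb, against 67 of 278 (24.1%) on the other nuclear chromosomes. For the best peaks these counts were 4 of 42 (9.52%) against 16.4% in replicate 1 and 10 of 50 (20%) against 28.3% in replicate 2. The 11 peaks formed 5 groups. The group of 3 in the left arm spanned 4701080 to 4703513 and held combined peaks 244, 262 and 7, of which 244 and 262 overlap each other. Peaks 244 and 262 had the same partner in replicate 1, at rank 462, and ranked 451 and 3557 in replicate 2. The pair in the centre is the overlapping peaks 8 and 11 described above. In the right arm, peaks 36 and 76 overlap within 14155309 to 14156153 and share partners at ranks 150 and 23. Peaks 18 and 157 lay within 10559528 to 10563829, and peak 157 ranked 299 and 571. Peaks 52 and 97 lay within 14251116 to 14256506, and peak 97 ranked 656 and 525. In this last group and in the left arm group, no peak was reached by both replicates.

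The last comparison asked how often sites of chromosome II were called in both ChIP lists, counting any overlap of 1 bp or more. The overlap expected by chance at the density of the lists was not simulated, so these shares include an unknown part due to chance. In the full lists 1354 of 4623 peaks of replicate 1 (29.3%, 95% exact interval 28.0 to 30.6%) had a partner in replicate 2, against 29.3% of all nuclear peaks. Of the peaks of replicate 2, 1312 of 3453 (37.996%, 36.4 to 39.6%) had a partner in replicate 1, against 36.6% of all nuclear peaks. The differences from the other nuclear chromosomes were -0.0608 percentage points (adjusted p = 0.944) and 1.66 points (adjusted p = 0.126, two-sided Fisher's exact tests, adjusted over both directions), and neither passed. This background includes X, which had the lowest shares, 20.3% in replicate 1 and 26.1% in replicate 2. The other autosomes lay between 26.6% on V and 35.1% on III in replicate 1. In replicate 2 they lay between 33.9% on V and 42.8% on III. A difference from the other autosomes alone was not tested. The share was lowest in the left arm, at 25.8% (23.5 to 28.1%) in replicate 1 and 35.2% (32.2 to 38.2%) in replicate 2. The centre had 31.5% and 38.7% and the right arm 30.3% and 39.6%. The left arm also had the lowest peak density in both full lists, and whether its lower share follows from density was not tested. On the other autosomes the left arm was also lowest in replicate 1, with 29.9%, against 33.5% in the centre and 30.5% in the right arm. In replicate 2 their left arm had 39.3%, centre 38.0% and right arm 37.9%. Shared sites of replicate 1 came to 72.7 per Mb in the left arm, 94.9 in the centre and 98.4 in the right arm.

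Sharing went with rank on chromosome II as elsewhere. In replicate 1, 13 of the 14 peaks among the 100 best had a partner anywhere in replicate 2 (92.9%), and at ranks 101 to 329 it was 21 of 28 (75%). At ranks 330 to 1000 the share was 51.8%, at 1001 to 5000 it was 38.9%, and past the first 10000 nuclear peaks it was 25.7%. In replicate 2 the shares over the same ranks were 100% (12 of 12), 81.6%, 65.3%, 48.1% and 32.5%. The shares on the other nuclear chromosomes, X included, were 91.9%, 76.6%, 56.4%, 40.9% and 24.9% in replicate 1. All 5 lay within the 95% intervals of chromosome II. In replicate 2 the other chromosomes had 43.5% at ranks 1001 to 5000, below the interval of chromosome II there (44.0 to 52.2%), and their shares at the other 4 of these ranges lay within its intervals.

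**Figure D5:**
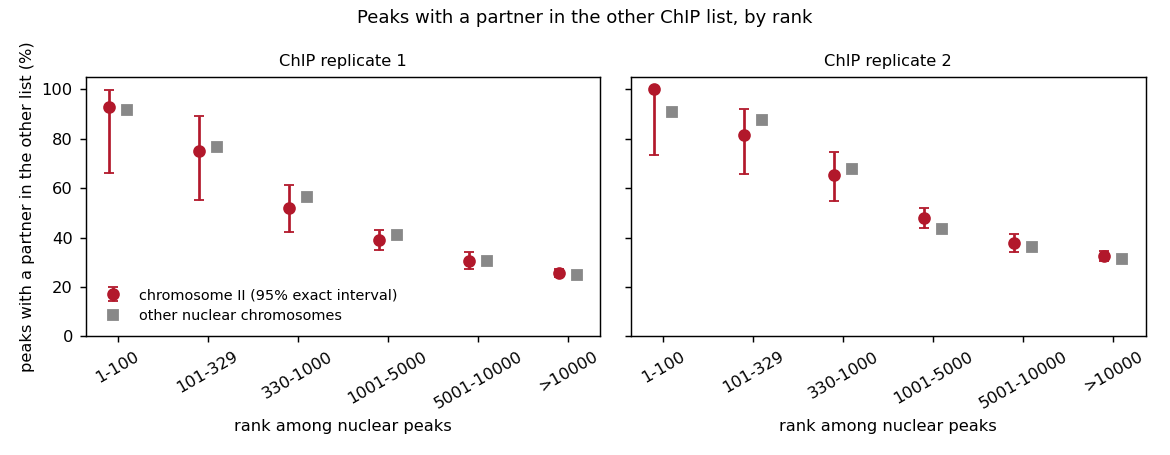
Share of peaks with a partner in the other full ChIP list (%) by rank among nuclear peaks, for chromosome II (red, with 95% exact intervals) and the other nuclear chromosomes pooled (grey). On II the share is 92.9% at ranks 1 to 100 and 25.7% past 10000 in replicate 1, and 100% and 32.5% in replicate 2, close to the grey points.

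When partners were limited to the best peaks, 12 of the 42 best peaks of replicate 1 on chromosome II had one in replicate 2 (28.6%, 95% exact interval 15.7 to 44.6%), against 24.6% of all best nuclear peaks. From replicate 2 it was 12 of 50 (24%, 13.1 to 38.2%), against 24% of all best nuclear peaks. Counted on the peaks of replicate 1, the 12 lay 2 in the left arm, 5 in the centre and 5 in the right arm, an arm share of 58.3% (27.7 to 84.8%). Counted on those of replicate 2 they lay 2, 4 and 6, an arm share of 66.7% (34.9 to 90.1%). The arm shares of such sites elsewhere on the autosomes were 66.2% and 65.1%. All 12 overlapped combined peaks. Among the 1000 best of each list 35 of 154 were shared (22.7%, against a background of 22.5%), 6 in the left arm, 12 in the centre and 17 in the right arm, an arm share of 65.7% (47.8 to 80.9%). The arm share of such sites on the other autosomes was 59.2%. Of these 35 sites, 28 overlapped a combined peak and 7 did not. For neither the 12 nor the 35 sites was this overlap with combined peaks counted on the other chromosomes. Among the 5000 best, 150 of the 733 peaks of replicate 1 were shared (20.5%, against 21.7% on the other nuclear chromosomes). They lay 27, 54 and 69 in left arm, centre and right arm. Counted on replicate 1, the arm shares of shared sites were thus 58.3%, 65.7% and 64% at the 329, 1000 and 5000 best. Counted on replicate 2 they were 66.7%, 65.7% and 65.5%. On the other autosomes these shares were 66.2%, 59.2% and 59.6% counted on replicate 1. Counted on replicate 2 they were 65.1%, 59.1% and 59.1% there. The differences between chromosome II and the other autosomes in shared sites were not tested. The shares on chromosome II all lie below the 74.5% of the combined list. All but the 58.3%, a share of 12 sites, lie within its interval (60.4 to 85.7%). The intervals at the 329 and 1000 best include 74.5%, and those at the 5000 best end at 71.7% and 73.2%.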

How the data were processed

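Per the labels' protocols, worms were crosslinked in 2% formaldehyde and sonicated, 10% of the supernatant was kept as input, and the rest was precipitated with anti-GFP antibodies. Per the file headers, coordinates are those of WormBase WS220, and the rows name SPP followed by IDR as peak caller. Not given in the sources used here: aligner, tool versions, thresholds, use of inputs and way of combining lists. The score in each deposited list is the authors' own, has no named scale and served only to find ties at the highest score. All 329 combined peaks share 1 score.

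Chromosome length was the highest peak end in the 3 lists (15271807 bp for II). Intervals are exact Clopper-Pearson and cover the number of peaks only. The tests are Fisher's exact tests with peaks as units, and the p-values of all rank limits of the ChIP lists were adjusted together, without the combined list, a choice made after seeing the data. Members, lists and comparisons were chosen with earlier results of these data known. Regions named are the 10 best combined peaks, those without a partner, those within 5 kb of another, the 3 best of each ChIP list and the ends, widest gap and fullest 1 Mb step, and a few others said to be chosen afterwards. Alternatives changed peak merging, arm definition, rank limits and the overlap that counts. Tests used scipy 1.17.1 and tables pandas 2.3.3 under Python 3.11.15 with numpy 2.4.6, figures used matplotlib 3.10.9, and the steps were tested on simulated data. Read depth is unknown, so no limit that needs read counts is given.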

Additional observations from a re-analysis of the deposited data

How the results depend on the processing

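The arm share of combined peaks on chromosome II, 74.5%, was 51.0% with the outer 25% at each end as arms (50% of length) and between 73.3% and 75% under the other 4 alternatives. Its difference from the other autosomes was 18.9 points and passed with overlapping peaks merged (adjusted p = 0.0477, Fisher's exact test), but not with peaks within 5 kb joined (18.1 points, adjusted p = 0.0918, Fisher's exact test). With the best peaks of 1 ChIP list in place of the combined list, that is, leaving out replicate 1 or 2, it ranged from -3.63 to 8.63 points. In replicate 2, with arms as first defined, the sign turned for every other rank limit tried. The differences were 20.1 points (100 best), 5.71 (1000 best), 4.83 (5000 best), 0.44 (all peaks) and 7.21 (all at the highest score). None of these passed, and the cause was not tested. With the outer 25% at each end as arms, the sign did not turn for the 100 best of replicate 2. The difference was -11.9 points for its best peaks and -6.61 for the 100 best. It was 2.29 (1000 best), 2.99 (5000 best), 0.359 (all peaks) and 0.763 (all at the highest score). The differences at these other rank limits were not tested with these arms. The difference in sharing from the other nuclear chromosomes, X included, turned to 0.349 points for replicate 1 peaks with midpoints within 100 bp. With replicate 1 shortened it was 0.151 points, and none of these passed. The share of best peaks with a best partner was 11.9% in replicate 1 and 10% in replicate 2 with midpoints within 100 bp, and 14.3% for the 100 best of replicate 1. The ratio of left to right arm ranged from 0.217 to 0.474 when either replicate was left out. In all, 34 values, some of them given above, kept their direction and their side of the threshold or stayed within their interval or spread. Among them is the median distance to the nearest combined peak, 37.6 kb, which was 62.8 kb with overlapping peaks merged. Its spread was taken from the best peaks of the 2 ChIP lists (118 and 60.2 kb), so staying within it is a weak criterion. No paired analysis was possible because the inputs have no values here and the 2 ChIP lists form 1 group. The ordering of tied peaks and the unknown read depth limit what the rank limits can show.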
